A study of Mus musculus with 8 samples.

Results

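A set of 34 genes of the mitochondrial protein import machinery was followed by RNA sequencing in E4.5 mouse blastocysts, the stage just before implantation. The genes are the protein-coding genes whose GENCODE GRCm38 symbol starts with Tomm or Timm and a digit, plus Pam16, Dnajc19, Grpel1, Grpel2, Samm50, Mtx1, Mtx2, Pmpca and Pmpcb. They are 34 of the 55471 genes in the deposited tables, and all 34 were among the 13953 genes with enough counts to be tested. The rule uses names only, no measured value.

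Almost every mitochondrial protein is made in the cytosol and carried into the organelle. Receptors on the outer membrane (Tomm20, Tomm22, Tomm70a) recognise the precursor and the TOM pore (Tomm40) lets it through. From there the TIM23 complex and its matrix motor pull in precursors with a cleavable presequence, the TIM22 complex inserts carrier proteins into the inner membrane with the help of small Tim chaperones, and the sorting and assembly machinery folds barrel proteins into the outer membrane. The matrix processing peptidase then cuts the presequence off. Isca2, a carrier protein of iron-sulfur cluster assembly, is itself one of the matrix proteins that arrive by this route.

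The blastocysts were of 3 Isca2 genotypes, given in the labels as Isca2 -/- (KO, n = 2 libraries), Isca2 G77S/G77S (G77S, n = 3) and wild type (WT, n = 3). The series design sets embryos without Isca2 against wild type. The labels name matings of superovulated Isca2+/- females with Isca2+/- males and culture of the embryos for all groups, and do not name the cross behind the G77S embryos. They give no number of embryos, litter, sex or preparation day for a library, so the p-values below measure only how far these libraries spread, which may be technical.

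Isca2 RNA checked the KO labels only, since its level overlapped between G77S and WT. It stood at 4.84 and 6.20 CPM (counts per library of equal size, after scaling) in KO, at 89.1, 105 and 133 CPM in G77S, and at 86.9, 173 and 154 CPM in WT. Library totals were between 10323965 and 23842619 expected counts, so that 3 counts correspond to 0.139 to 0.298 CPM. The 34 genes took 0.652% to 0.780% of the counts of a library. From the tables a mean fragment of 182.45 to 186.13 bases could be read for the 3 G77S libraries, against 243.74 to 292.11 bases for KO and WT, with no overlap. A difference in preparation and the G77S genotype therefore cannot be told apart. Y-linked RNA was near absent in G77S replicate 1 and WT replicate 1.

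Cell type markers moved with genotype as well. The summed level of 8 trophectoderm markers was 27465 to 30629.7 CPM in KO, 7311 to 10944 CPM in G77S and 24977 to 28350.4 CPM in WT, most of it from Fabp3, Krt8 and Krt18. The list did not move as one. Of its transcription factor genes, Cdx2, Gata3 and Tfap2c overlapped between G77S and WT. Cdx2 averaged 11.0 ± 4.17 CPM in G77S and 8.15 ± 4.93 CPM in WT. In the same order, Gata3 averaged 115 ± 4.07 and 118 ± 39.9 CPM, and Tfap2c 42.5 ± 3.52 and 49.8 ± 24.6 CPM. Elf5 and Eomes were lower in every G77S library than in any WT library. Elf5 had 0.07 to 0.954 CPM in G77S and 7.83 to 10.4 CPM in WT, and Eomes 16.9 to 21.3 and 22.5 to 41.9 CPM. In KO, Eomes (12.6 and 9.54 CPM) and Tfap2c (19.1 and 17.5 CPM) lay below all WT libraries, while Cdx2, Gata3 and Elf5 overlapped WT. Epiblast markers (7 genes) summed to 186 to 201 CPM in KO, 153 to 265 CPM in G77S and 243 to 307 CPM in WT, and of these Sox2 and Esrrb were at 0 in all 3 WT libraries. Within this sum, Nanog averaged 40.4 CPM in KO, 119 CPM in G77S and 261 CPM in WT, while Tdgf1 averaged 139, 59.1 and 4.57 CPM and Pou5f1 3.38, 38.6 and 6.51 CPM in the same order. For 7 primitive endoderm markers the sums were 61.8 to 70.0 CPM in KO, 33.6 to 46.1 CPM in G77S and 22.3 to 29.4 CPM in WT, where Gata4, Sox17 and Sox7 were at 0. Of 7 cumulus and granulosa cell markers, 6 were at 0 in every library. In whole blastocysts, fewer cells of a type and less RNA per cell cannot be told apart, and the part of cell makeup in the values below was not tested.

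Promoter sequence is shown for Dnajc19, the import gene that fell in G77S, and for Timm17a, Timm17b and Timm8a2, whose shares of a paralog pair are described below, so that their promoters can be compared by eye. Each is read 5′ to 3′ on the gene's strand from the RefSeq table for GRCm38.p6, without bases that a GENCODE exon covers, and capitals mark CCAAT (or its reverse, ATTGG) and the ETS core CGGAAG (or its reverse, CTTCCG). The Dnajc19 stretch is chr3:34081355-34081604 (minus strand), that of Timm17a chr1:135313779-135313987 (minus strand), that of Timm17b chrX:7899270-7899335 (plus strand) and that of Timm8a2 chr14:122034424-122034673 (plus strand).
Dnajc19: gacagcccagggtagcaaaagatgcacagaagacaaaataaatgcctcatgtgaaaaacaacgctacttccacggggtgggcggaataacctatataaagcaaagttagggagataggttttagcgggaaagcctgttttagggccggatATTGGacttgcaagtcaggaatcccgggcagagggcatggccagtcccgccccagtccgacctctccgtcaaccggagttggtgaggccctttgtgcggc
Timm17a: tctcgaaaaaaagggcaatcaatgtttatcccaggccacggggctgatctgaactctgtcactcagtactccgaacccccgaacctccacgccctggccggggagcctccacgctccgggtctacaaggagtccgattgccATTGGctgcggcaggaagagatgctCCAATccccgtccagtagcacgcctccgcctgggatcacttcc
Timm17b: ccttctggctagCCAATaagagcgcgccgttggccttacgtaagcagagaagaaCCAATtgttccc
Timm8a2: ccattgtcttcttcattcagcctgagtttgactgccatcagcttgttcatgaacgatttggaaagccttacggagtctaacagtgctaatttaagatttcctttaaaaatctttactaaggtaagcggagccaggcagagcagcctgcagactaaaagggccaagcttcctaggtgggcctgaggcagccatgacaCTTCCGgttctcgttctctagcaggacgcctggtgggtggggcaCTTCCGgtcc

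Dnajc19 held 1 CCAAT match, 100 bases before its start, and no ETS core. Timm17a held CCAAT matches 109 and 84 bases before its start, and an ETS core at 46 bases that runs into the unprinted bases. In Timm17b the CCAAT matches lay 54 and 12 bases before the start, with another at 184 bases, in the unprinted exon of the neighbour gene Pqbp1, and no ETS core was found. Timm8a2 had ETS cores 54 and 10 bases before its start and no CCAAT. Windows from 250 bases before to 50 after the start were given for 30 of the 34 genes, all but Grpel2, Timm21, Tomm40l and Tomm7. The ETS core, the binding letters of the factor family that includes GABP, was in 16 of these 30 windows (53.3%), against 17.2% of 27025 windows of all genes and 21.5% of 17492 windows of protein-coding genes. CCAAT was in 10 (33.3%), against 37.9% of all windows. The NRF1 letters GCGCATGC were in 2 (6.67%), against 2.8% of all windows, and the YY1 letters AAGATGG in 4 (13.3%), against 6.48%. All motifs were searched on both strands. The ETS core ends in the letters AAG with which the YY1 letters begin, so matches of both can share bases. Mtx1, Timm17a and Tomm34 held both motifs, and whether their matches overlap was not tested. These are matches of letters and no measure of binding.

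Of the 34 import genes, only Dnajc19 passed the test in any comparison. This gene encodes a J-domain protein that stimulates the Hsp70 of the import motor, and it fell in G77S against both other genotypes. In G77S versus WT 0 of 34 were called higher and 1 lower, where 3.39% of all genes tested were called (1.3% higher, 2.09% lower). In G77S versus KO the members again gave 0 higher and 1 lower, against 4.19% of all genes (1.76% higher, 2.43% lower). In both comparisons 1 call among 34 genes is near the share of all genes, so it does not set the import genes apart. In KO versus WT no import gene was called, against 0.122% of all genes (0.0788% higher, 0.043% lower), by edgeR's quasi-likelihood test with Benjamini-Hochberg adjustment. DESeq2 called 3 higher and 5 lower in G77S versus WT, against 5.46% and 6.3% of all genes to which it gave an adjusted p. It called 2 and 3 in G77S versus KO, against 6.66% and 6.62%, and 1 higher (Timm8b, adjusted p = 0.0439) and 0 lower in KO versus WT, against 2.43% and 2.75%. With limma on log2(TPM + 1), 8 were called higher and 1 lower in G77S versus WT (8.44% and 2.06% of all genes), 7 and 1 in G77S versus KO (11.1% and 2.19%), and 0 and 0 in KO versus WT (0.409% and 0.272%). The contrasts share libraries, so their results are not independent of each other.

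Genes with an unadjusted p under 0.05 were also counted, Dnajc19 included. In G77S versus WT there were 11 of the 34 (32.4%), 6 higher and 5 lower, against 20% of all genes (10.3% higher, 9.78% lower). In G77S versus KO there were 8 (23.5%), 4 higher and 4 lower, against 20.7% of all genes (11% higher, 9.74% lower). In KO versus WT there were 4 (11.8%), all higher, against 13% of all genes (6.24% higher, 6.8% lower). The log2 fold change was above 0 for 22 of the 34 in G77S versus WT, for 17 in G77S versus KO and for 19 in KO versus WT, against 51.6%, 53.7% and 46.5% of all genes. The median log2 fold change of the 34 was 0.18 in G77S versus WT, 0.0043 in G77S versus KO and 0.10 in KO versus WT. Over all genes tested it was 0.035, 0.099 and -0.058 in these comparisons. The libraries of the groups did not overlap for 9 higher and 4 lower members in G77S versus WT, against 17.2% and 11.8% of all genes. For G77S versus KO the numbers were 10 and 10, against 24.9% and 20%, and for KO versus WT 7 and 1, against 13.1% and 12.5%.

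**Figure D1:**
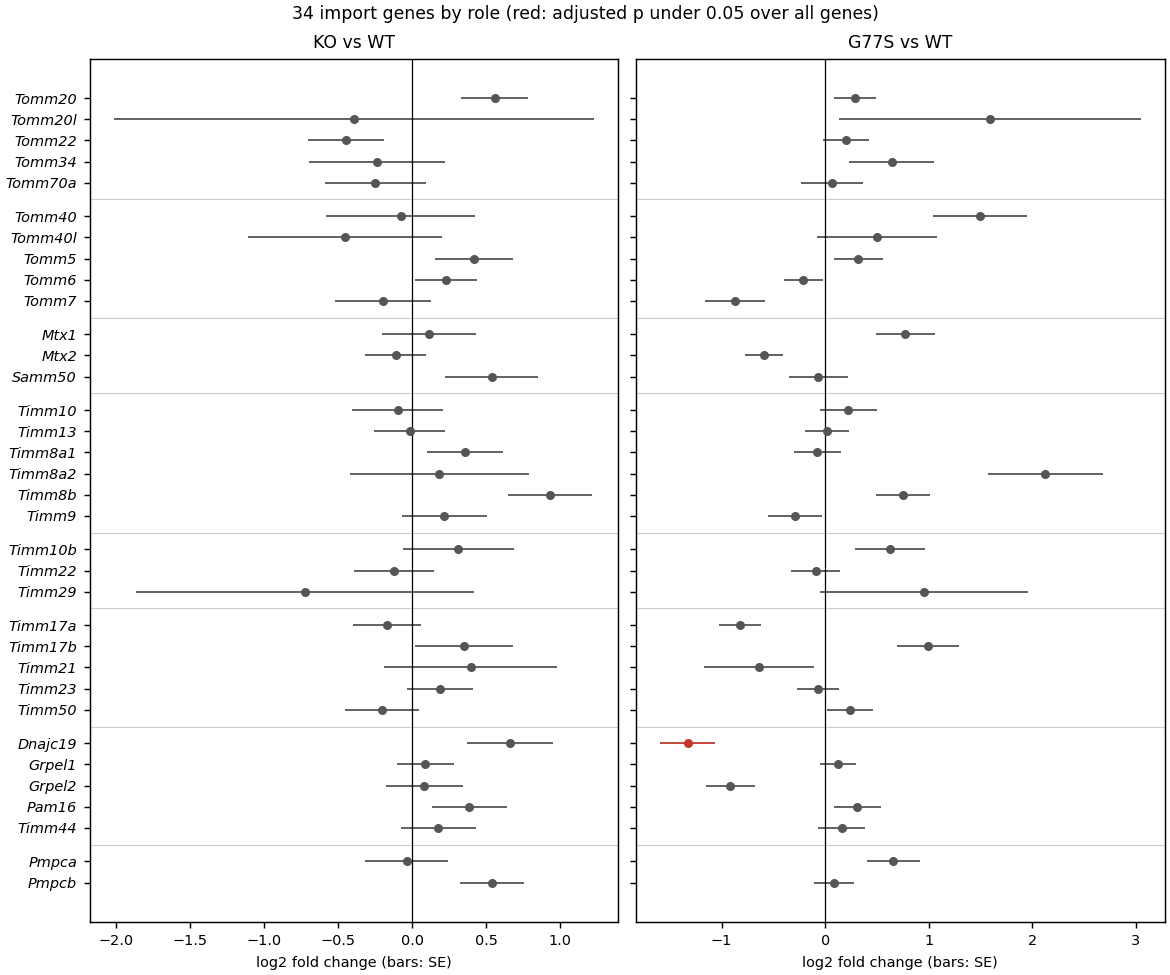
Log2 fold change (horizontal axis, points, with bars for 1 standard error) of the 34 import genes, grouped down the page by role, for KO versus WT in one panel and G77S versus WT in the other, with genes called at an adjusted p under 0.05 in red. Dnajc19 is the one red point, at -1.33 in G77S versus WT. Genes to either side of 0 occur in most roles.

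The matrix motor holds the one import gene that passed. Dnajc19 (ENSMUSG00000027679, GRCm38 chromosome 3 from 34056020 to 34081321, minus strand) had 675 and 1001.5 CPM in KO, 184, 216 and 233 CPM in G77S, and 343, 606 and 639 CPM in WT. Every G77S library was below every WT library, and every WT library was below both KO libraries. Dnajc19 fell in G77S to 211 ± 24.5 CPM (SD, n = 3), against 529 ± 162 CPM in WT (n = 3), with a log2 fold change of -1.33 (SE 0.27, 95% interval -1.91 to -0.74, adjusted p = 0.0259), or 2.51-fold lower. Against the 838 ± 231 CPM of KO (n = 2) the log2 fold change of G77S was -1.99 (SE 0.29, interval -2.63 to -1.35, adjusted p = 0.00614), or 3.97-fold lower. In KO versus WT it was 0.66 (SE 0.29, interval 0.024 to 1.3, adjusted p = 0.37), which did not pass.

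The call rests on few libraries. In G77S versus WT the adjusted p of Dnajc19 was 0.0799 without WT replicate 2, 0.0807 without WT replicate 3, and 0.114, 0.111 and 0.0755 without G77S replicates 1, 2 and 3, and it passed without WT replicate 1. In G77S versus KO it was 0.0518 without KO replicate 2. The log2 fold change stayed between -1.56 and -1.16 in G77S versus WT, and between -2.25 and -1.68 in G77S versus KO, when any single library was left out. Among 9 other settings of the whole fit Dnajc19 was called in 9 in both comparisons. In G77S versus WT, Timm17a passed in 6 of these, Timm8a2 in 5, Timm17b and Tomm40 in 4 and Grpel2 in 3, and in G77S versus KO Grpel2 passed in 5 and Timm8a2 in 4.

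Grpel1 and Grpel2 encode the nucleotide exchange factors that reset the same Hsp70. Grpel2 had 119 and 139 CPM in KO, 56.1, 78.8 and 58.5 CPM in G77S, and 113, 109 and 143 CPM in WT. All 3 G77S libraries lay below the other 5 in CPM, with a log2 fold change of -0.92 (adjusted p = 0.0608, SE 0.24) against WT and -1.0 (adjusted p = 0.0569, SE 0.26) against KO. Over all alternatives of the fit these ran from -1.07 to -0.47 (adjusted p up to 0.329) and from -1.18 to -0.36. In TPM the groups overlapped: G77S replicate 2, at 25.2, exceeded KO (21.7 and 23.6) and WT replicate 2 (20.8). Grpel1 was at 372 and 387 CPM in KO, 376, 416 and 373 CPM in G77S, and 358, 332 and 380 CPM in WT, and its groups overlapped in G77S versus WT. Pam16, the partner that holds the J-domain protein at the channel, averaged 81.6 CPM in KO, 77.4 ± 6.44 CPM in G77S and 62.5 ± 9.56 CPM in WT. Timm44, which tethers the motor to the channel, averaged 69.8 ± 6.96, 68.9 ± 5.55 and 61.7 ± 5.85 CPM in KO, G77S and WT. Of the motor partners on a neighbouring list, the Hsp70 gene Hspa9 averaged 192, 168 and 171 CPM in the same order. Dnajc15, another gene of that list, averaged 185, 130 and 135 CPM, and 71.0, 136 and 70.7 TPM. Neither of these partners was called in any comparison.

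**Figure D2:**
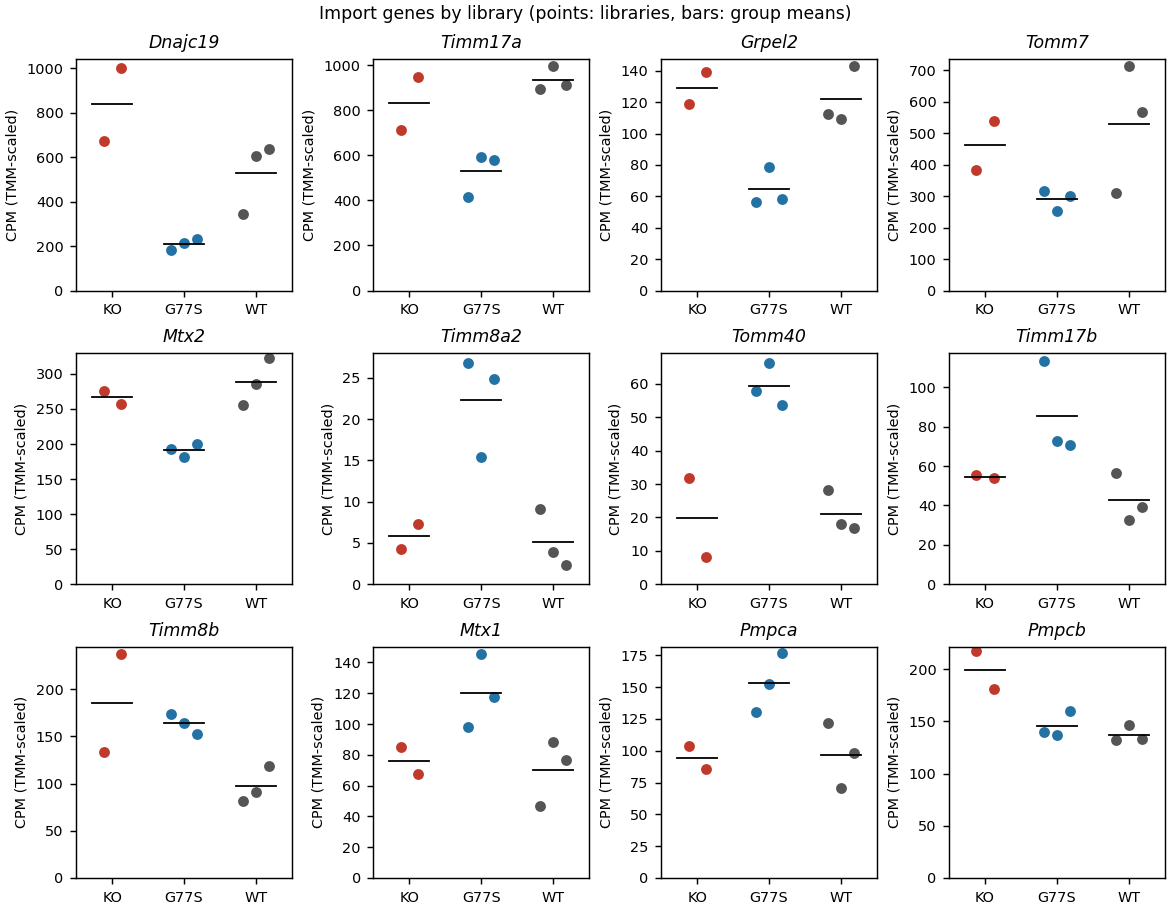
CPM (vertical axis of each panel, linear from 0) in every library of KO, G77S and WT, from left to right, for the 11 import genes with an unadjusted p under 0.05 in G77S versus WT and for Pmpcb, with a bar at each group mean. The 3 G77S points of Dnajc19, Grpel2, Mtx2 and Timm17a lie below all other libraries, while those of Timm8a2, Tomm40, Timm17b, Mtx1 and Pmpca lie above them.

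The TIM23 complex, the inner membrane channel for presequence proteins, can be built with Timm17a or with its paralog Timm17b. Timm17a (chromosome 1 from 135295213 to 135313778, minus strand) had 714 and 949 CPM in KO, 416, 593 and 577 CPM in G77S, and 894, 998 and 912 CPM in WT. The G77S libraries were below all others, with a log2 fold change of -0.82 (adjusted p = 0.0553, SE 0.20) against WT and -0.65 (adjusted p = 0.133, SE 0.22) against KO. On the length-scaled log2(TPM + 1) values that last difference was 0.071, of opposite sign. Timm17b (chromosome X from 7899357 to 7908351, plus strand) had 55.5 and 53.8 CPM in KO, 113, 72.5 and 70.5 CPM in G77S, and 56.6, 32.7 and 39.3 CPM in WT. Here the G77S libraries lay above the other 5, with a log2 fold change of 1.0 (adjusted p = 0.0925, SE 0.30) against WT, which passed without WT replicate 1 (1.25, adjusted p = 0.0450). With single libraries left out this fold change ran from 0.73 to 1.25, and over all alternatives of the fit its adjusted p reached 0.317. Within G77S and within WT, Timm17b was highest in replicate 1, where Y-linked RNA was near absent. With the term for Y-linked RNA its log2 fold change against WT was 1.0 (adjusted p = 0.0472).

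The share of Timm17b in the summed TPM (transcript abundance scaled for length) of both paralogs was 3.46% and 3.22% in KO, 17.9%, 8.90% and 9.28% in G77S, and 3.28%, 2.12% and 2.34% in WT. The G77S share exceeded that of every other library, and its mean was 9.44 percentage points above WT. An exact two-sided permutation test gave p = 0.1, the smallest that 3 against 3 libraries allow, and 0.25 after adjustment over 15 paralog comparisons. The design thus cannot reach 0.05 for a share. In TPM, Timm17a itself stood at 917 ± 231 in G77S and 1165 ± 118 in WT, and these libraries overlapped. Timm23, the channel subunit, had 1355 and 1565 CPM in KO, 1409.7, 1152 and 1106.5 CPM in G77S, and 997, 1491 and 1352 CPM in WT, with overlap between all groups. Timm50, the receptor of the channel, averaged 122 ± 29.5, 166 ± 26 and 141 ± 8.33 CPM in KO, G77S and WT. Timm21, which links TIM23 to the outer membrane complex, averaged 29.1 ± 15.1, 14.2 ± 5.14 and 22.1 ± 15.5 CPM.

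**Figure D3:**
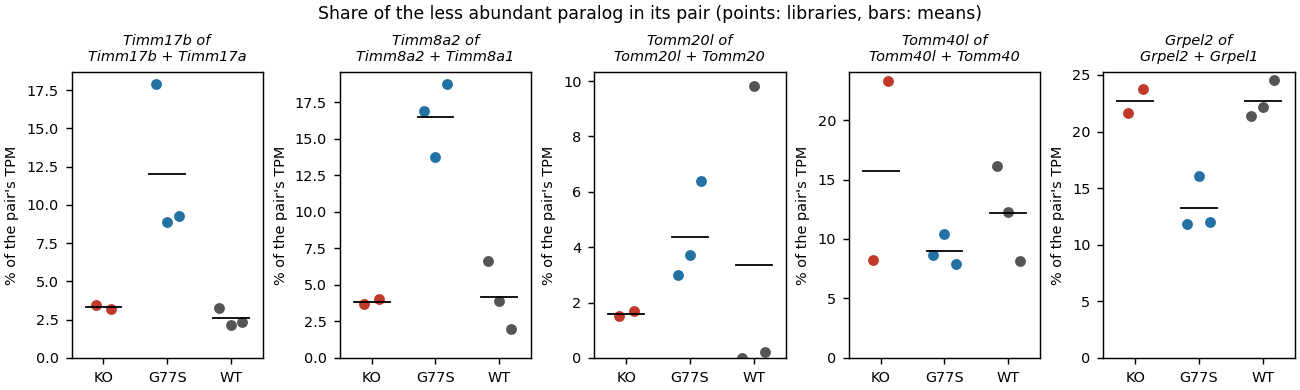
Share (percent of the summed TPM of a paralog pair, vertical axis) taken by the less abundant member, in each library of KO, G77S and WT, for the pairs of Timm17, Timm8a, Grpel, Tomm20 and Tomm40 genes. The 3 G77S libraries lie above the others for Timm17b (8.90% to 17.9%) and Timm8a2 (13.7% to 18.7%) and below them for Grpel2 (11.8% to 16.0%).

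Small Tim chaperones escort hydrophobic precursors across the intermembrane space. The mouse has Timm8a1, the ortholog of the human deafness-dystonia gene, and its paralog Timm8a2. Timm8a2 had 4.31 and 7.31 CPM in KO, 26.8, 15.4 and 24.9 CPM in G77S, and 9.09, 3.87 and 2.36 CPM in WT. Each G77S library was above the other 5, with a log2 fold change of 2.13 (adjusted p = 0.0648, SE 0.56) against WT and 1.94 (adjusted p = 0.123, SE 0.64) against KO. Without WT replicate 1 the difference from WT passed (2.86, adjusted p = 0.0183). With single libraries left out this difference ran from 1.78 to 2.86, and over all alternatives of the fit its adjusted p reached 0.207. Timm8a1 had 205 and 309 CPM in KO, 223, 164 and 184 CPM in G77S, and 229, 169 and 202 CPM in WT, with overlap between G77S and WT. Timm8a2 thereby made up 3.68% and 4% of the TPM of both genes in KO, 16.9%, 13.7% and 18.7% in G77S, and 6.65%, 3.88% and 2.01% in WT. The exact permutation p was 0.1 against WT and against KO, the smallest possible (adjusted 0.25).

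Timm8b, another gene of the Tim8 type, was the small Tim gene with the smallest p in KO. It had 133 and 238 CPM in KO, 174, 165 and 153 CPM in G77S, and 81.4, 91.6 and 119 CPM in WT. All KO and G77S libraries lay above all WT libraries, with log2 fold changes of 0.93 (SE 0.28, interval 0.30 to 1.56, adjusted p = 0.206) in KO versus WT and 0.75 (adjusted p = 0.135, SE 0.26) in G77S versus WT. Timm13, the most abundant small Tim per length in WT, had 260 and 282 CPM in KO, 241, 300 and 289 CPM in G77S, and 215, 336 and 270 CPM in WT, with full overlap of G77S and WT. Timm9 and Timm10, which form the hexamer that carries metabolite carriers, averaged 58.7 ± 1.45 and 76.9 ± 26.7 CPM in KO, 41.2 ± 4.45 and 96.1 ± 12.6 CPM in G77S, and 50.5 ± 9.18 and 82.3 ± 17.8 CPM in WT.

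At the outer membrane, the pore gene and its small stabilising subunits gave differences of opposite sign, none of which passed. Tomm40, the barrel that forms the TOM pore, had 31.7 and 8.16 CPM in KO, 57.7, 66.4 and 53.5 CPM in G77S, and 28.2, 18 and 16.9 CPM in WT. The G77S libraries were above all others, with a log2 fold change of 1.49 (adjusted p = 0.0974, SE 0.46) against WT and 1.57 (adjusted p = 0.127, SE 0.53) against KO. The difference from KO depended on which library was left out, from 0.90 to 2.86, and it passed without KO replicate 1 (adjusted p = 0.0345). Tomm7, a small subunit that also stabilises the kinase Pink1 on the outer membrane, had 384 and 539 CPM in KO, 317, 251 and 299 CPM in G77S, and 309, 712 and 568 CPM in WT. Its G77S and WT libraries overlapped through WT replicate 1, and the log2 fold change was -0.87 (adjusted p = 0.124, SE 0.29), or -1.14 without that library, which passed (adjusted p = 0.0201). With single libraries left out this fold change ran from -1.14 to -0.60, and over all alternatives of the fit its adjusted p reached 0.353. Tomm6 had 549 and 592 CPM in KO, 416, 381 and 464 CPM in G77S, and 436, 567 and 456 CPM in WT, so that G77S lay below KO and overlapped WT. Tomm5 averaged 429 ± 192 CPM in KO, 401 ± 24.9 CPM in G77S and 322 ± 21.8 CPM in WT. Tomm40l, the paralog of Tomm40, stayed between 2.54 and 6.19 CPM in all libraries.

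Among the import receptors, Tomm20, the main presequence receptor, had 662 and 647 CPM in KO, 580, 589 and 462 CPM in G77S, and 456, 351 and 528 CPM in WT. Both KO libraries lay above WT, with a log2 fold change of 0.56 (adjusted p = 0.335, SE 0.23). Tomm22, the central receptor that joins the pore units, had 265 and 181 CPM in KO, 338, 344 and 366 CPM in G77S, and 231, 355 and 325 CPM in WT. G77S exceeded KO without overlap (log2 fold change 0.65, SE 0.26, adjusted p = 0.185) and overlapped WT. Tomm70a, the receptor for carrier precursors, averaged 64.9 ± 5.09 CPM in KO, 80.6 ± 16.8 CPM in G77S and 77 ± 29.1 CPM in WT. Tomm34, a cytosolic cochaperone of import, averaged 12.6 ± 4.60, 23.3 ± 4.01 and 14.9 ± 6.39 CPM in KO, G77S and WT. Tomm20l, a Tomm20 paralog, had 0.709 and 0.901 CPM in KO, 2.66, 3.13 and 3.82 CPM in G77S, and 0, 3.18 and 0.0927 CPM in WT, where a single library carried nearly all of it.

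The sorting and assembly machinery consists of the barrel Samm50 and the metaxins Mtx1 and Mtx2 that face the cytosol. The metaxins lay on opposite sides of 0 in G77S versus WT, and neither passed. Mtx1 had 84.8 and 67.2 CPM in KO, 97.8, 145 and 118 CPM in G77S, and 46.5, 88.2 and 76.4 CPM in WT, and G77S lay above all other libraries (log2 fold change 0.77 against WT, SE 0.29, adjusted p = 0.163). Mtx2 had 276 and 258 CPM in KO, 193, 181 and 200 CPM in G77S, and 256, 286 and 323 CPM in WT. G77S lay below all other libraries, with a log2 fold change of -0.59 (adjusted p = 0.103, SE 0.18) against WT and -0.48 (adjusted p = 0.213, SE 0.20) against KO, the second of which was 0.13 on the log2(TPM + 1) scale. Samm50 averaged 43.6 ± 8.51 CPM in KO, 28.6 ± 4.70 CPM in G77S and 30.0 ± 2.5 CPM in WT, with KO above both others in CPM. In TPM it averaged 7.54 ± 0.56 in KO, 11.6 ± 3.24 in G77S and 5.42 ± 0.56 in WT, with G77S above both others.

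In the TIM22 complex, the insertase for carrier proteins, the channel gene Timm22 had 76.4 and 106 CPM in KO, 95.1, 80.0 and 104 CPM in G77S, and 84.5, 116 and 96.7 CPM in WT, with overlap throughout. Timm10b, the small Tim bound to this complex, averaged 18.5 ± 3.96 CPM in KO, 23.0 ± 3.33 CPM in G77S and 14.9 ± 2.71 CPM in WT. Timm29, a further subunit known from human cells, was near the detection limit in KO replicate 2, at 1 count (0.053 CPM), against 3.31 CPM in KO replicate 1, 4.55 to 6.60 CPM in G77S and 2.08 to 4.08 CPM in WT.

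The matrix processing peptidase has a substrate-binding subunit, Pmpca, and a catalytic one, Pmpcb. Pmpca had 104 and 85.7 CPM in KO, 130.5, 153 and 177 CPM in G77S, and 122, 70.8 and 98.0 CPM in WT. G77S was above all other libraries, with a log2 fold change of 0.66 (adjusted p = 0.174, SE 0.25) against WT and 0.70 (adjusted p = 0.2, SE 0.29) against KO. Pmpcb had 218 and 181 CPM in KO, 140, 137 and 160 CPM in G77S, and 132, 146 and 133 CPM in WT. For this subunit it was KO that lay above all other libraries in CPM (log2 fold change 0.54 against WT, SE 0.21, adjusted p = 0.327). In TPM, Pmpcb stood at 113 and 101 in KO and at 111, 129 and 130 in G77S, which overlapped.

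The 4 import genes with an unadjusted p under 0.05 in KO versus WT were Timm8b, Pmpcb, Tomm20 and Dnajc19, and none passed after adjustment. The adjusted p of the other 30 genes was 0.497 to 0.997 in that comparison. In G77S versus WT the 23 genes with an unadjusted p of 0.05 or more had adjusted p-values of 0.332 to 0.981, and in G77S versus KO the 26 such genes had 0.255 to 0.977.

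Levels can be compared between genes in TPM. In WT the most abundant import RNAs were Timm17a at 1165 ± 118 TPM, Timm23 at 1072 ± 98.1 TPM and Dnajc19 at 963 ± 171 TPM (SD, n = 3), whose libraries overlapped. Tomm6 followed at 779 ± 97.0 TPM, Tomm5 at 645 ± 101 TPM and Tomm7 at 456 ± 134 TPM, and each overlapped its neighbour in this order. At the low end stood Tomm20l at 2.35 ± 3.91 TPM, Tomm40l at 1.93 ± 1.49 TPM and Timm29 at 0.72 ± 0.25 TPM. Dnajc19 was the most abundant import RNA in KO, at 1377 ± 202 TPM, and stood at place 6 in G77S, at 436 ± 73.4 TPM, and at place 3 in WT. The pore gene Tomm40 reached 10.4 ± 9.26 TPM in KO, 42.2 ± 7.16 TPM in G77S and 12.6 ± 5.47 TPM in WT, far below the small subunits of its own complex.

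**Figure D4:**
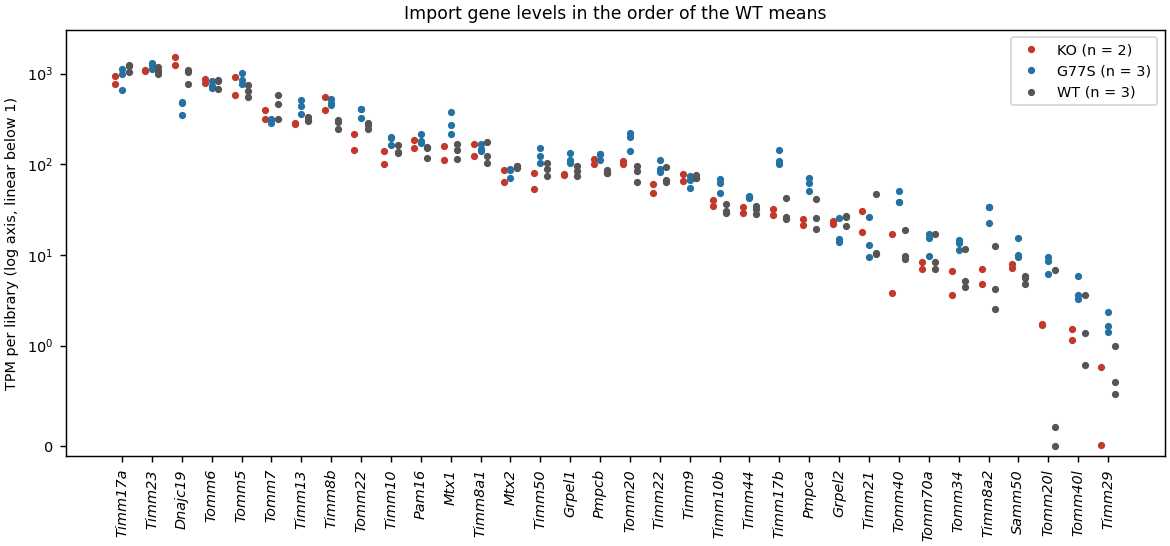
TPM (log axis, linear below 1) of the 34 import genes in each library, 1 point per library coloured by KO, G77S or WT, with genes ordered by their WT mean. The values span from Timm17a at 1165 TPM to Timm29 at 0.72 TPM in WT, and the G77S points of Dnajc19 and Timm17b stand apart from the others in opposite directions.

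Summed by role, the motor genes came to 1552 and 1798 TPM in KO, 692, 890 and 821 TPM in G77S, and 1077, 1314 and 1343 TPM in WT. This sum, most of it Dnajc19, was lower in all G77S libraries than in any other. Import receptors summed to 298 ± 60.3 TPM in KO, 596 ± 56.7 TPM in G77S and 367 ± 3.54 TPM in WT, and G77S was above all others. Small Tim genes summed to 1101 ± 159, 1352 ± 92.5 and 952 ± 30.7 TPM, the sorting and assembly genes to 218 ± 51.3, 381 ± 89.3 and 240 ± 23.1 TPM, the TIM22 genes to 92.4 ± 12.6, 155 ± 22.9 and 107 ± 13.3 TPM, and the processing peptidase genes to 130 ± 11.3, 184 ± 20.4 and 110 ± 15.3 TPM, in KO, G77S and WT. The pore group (1933 ± 227, 1972 ± 142 and 1895 ± 192 TPM) and the TIM23 group (2059 ± 148, 2407 ± 191 and 2380 ± 168 TPM) overlapped between G77S and WT. On the log2(TPM + 1) scale the median of all genes tested was itself 0.23 higher in G77S than in WT and 0.34 higher than in KO. Sums that are higher in G77S in TPM are to be read against that shift.

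The deposited tables also give a length for each gene and library, weighted by the transcripts found. It could vary for 26 of the 34 genes with at least 10 counts in every library. In G77S the weighted length was below WT without overlap for 11 of the 26 and above it for 2, where 15.4% and 5.78% of 7151 genes of the same kind were. In G77S versus KO it was below for 10 and above for 1 (23.7% and 11.2% of all), and in KO versus WT below for 2 and above for 2 (8.15% and 9.06%). The median G77S length was 97.4% of WT over the 26 genes and 99.4% over all 7151. The 11 genes below WT include small shifts: Tomm5, Dnajc19 and Pam16 stood at 99.7%, 99.6% and 99.2% of the WT length.

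Samm50 averaged 2664 bases in G77S and 4521 bases in WT, 58.9% of the WT length. Timm17b stood at 67.5% and Tomm20 at 69.7% of the WT length (3132 bases in G77S against 4491 in WT). Timm17a reached 87.0%, Pmpcb 87.5%, Timm13 89.4% and Pmpca 91.0%. The weighted length of Dnajc19 was 664 bases in G77S and 667 bases in WT, so its lower count in G77S was not accompanied by a comparable change in length. The G77S libraries are also those with the shorter fragments, and the part of this in the lengths was not tested. Where the effective length of each gene and library entered the fit, Timm17b (log2 fold change 1.64, adjusted p = 0.0124) and Tomm20 (0.89, adjusted p = 0.0466) were called higher in G77S versus WT beside the lower Dnajc19.

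**Figure D5:**
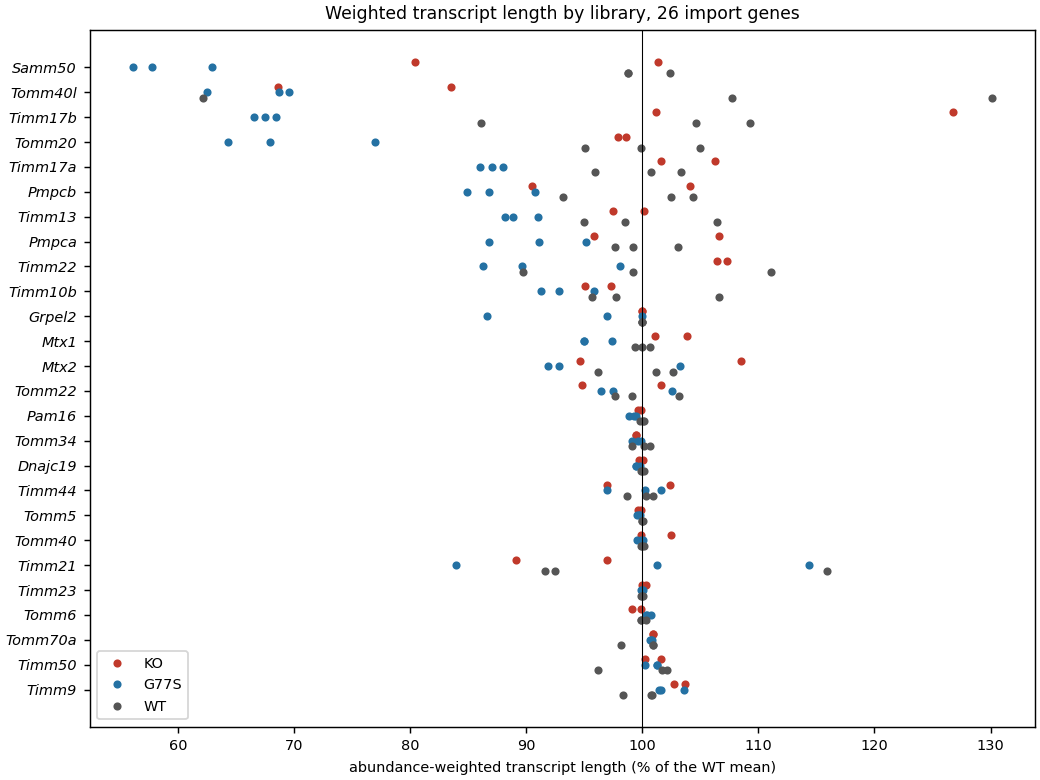
Weighted transcript length of 26 import genes in each library, as percent of the WT mean (horizontal axis), with points for KO, G77S and WT. The G77S points of Samm50, Timm17b and Tomm20 lie near 58.9%, 67.5% and 69.7%, and those of Dnajc19 near 99.6%.

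Genes that work next to the import machinery were followed on 5 lists of 40 genes, 39 of them tested. In G77S versus WT 0 were called higher and 1 lower, in G77S versus KO 0 higher and 4 lower, and in KO versus WT 0 in either direction, against the 3.39%, 4.19% and 0.122% of all genes given above. An unadjusted p under 0.05 was found for 7, 10 and 1 of the 39, where 20%, 20.7% and 13% of all genes had one. DESeq2 called 0 higher and 4 lower, 2 and 5, and 0 and 0, to be read against its shares of all genes above. The median log2 fold change of the 39 was -0.11, -0.26 and 0.16 in these comparisons, against 0.035, 0.099 and -0.058 over all genes. The stress transcription factor gene Ddit3, on the protease and stress list, had 235 and 167 CPM in KO, 27.5, 54.7 and 42.0 CPM in G77S, and 89.7, 187 and 230 CPM in WT. It fell in G77S with a log2 fold change of -2.03 against WT (adjusted p = 0.0173, SE 0.37) and -2.28 against KO (adjusted p = 0.0128, SE 0.40). All G77S libraries lay below the other 5. Against WT its adjusted p was 0.0596 without WT replicate 2, 0.0557 without WT replicate 3, and 0.0788, 0.0539 and 0.0698 without G77S replicates 1, 2 and 3, and against KO it was 0.0794 without KO replicate 1.

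Against KO, G77S also had less RNA of Apool and Chchd3, which encode subunits of the cristae junction complex, and of Immp1l, a subunit gene of the inner membrane peptidase. Apool fell to 92.0, 60.0 and 107 CPM in G77S, against 208 and 265 CPM in KO (log2 fold change -1.45, SE 0.27, adjusted p = 0.0164). Chchd3 stood at 76.6, 87.0 and 113 CPM in G77S and 232 and 157 CPM in KO (log2 fold change -1.08, SE 0.26, adjusted p = 0.0475). Immp1l stood at 27.7, 50.3 and 67.2 CPM in G77S and 140.5 and 141 CPM in KO (log2 fold change -1.54, SE 0.38, adjusted p = 0.0469). These calls too rest on few libraries. Apool had an adjusted p of 0.117 without KO replicate 2 and 0.0585 without G77S replicate 2. Chchd3 and Immp1l lost their calls without any one of the 5 libraries, with adjusted p-values of 0.065 to 0.26 and of 0.0505 to 0.173. Chchd3 also lost its call with limma on log2(TPM + 1) (adjusted p = 0.178) and when Y-linked RNA entered the fit (0.0804).

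On the 2 lists without a call, the matrix chaperonin gene Hspe1 stood at 540 and 602 CPM in KO, 388, 413 and 461 CPM in G77S, and 717, 419 and 468 CPM in WT. Its partner Hspd1 had 346 and 291 CPM in KO, 394, 432 and 361 CPM in G77S, and 506, 173 and 250 CPM in WT. Both genes varied most among the WT libraries. In the oxidation relay of the intermembrane space, Chchd4 had 150 and 176 CPM in KO, 86.2, 114 and 77.7 CPM in G77S, and 170, 78.5 and 91.3 CPM in WT. Gfer, the oxidase of this relay, had 26.3 and 18.7 CPM in KO, 42.8, 56.4 and 49.7 CPM in G77S, and 16.5, 37.2 and 26.5 CPM in WT.

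Some import genes share sequence with other loci, and the counting splits such reads by estimate. Of the 50-base stretches of their transcripts, 72.8% in Tomm6, 57.5% in Timm23 (mostly with Gm10273), 56.3% in Tomm40l (which overlaps Nr1i3) and 41.0% in Timm8a1 (with Gm9797) also occur in another gene, so these levels are uncertain. For Dnajc19 the share was 6.86%, mostly with the pseudogene Dnajc19-ps, which had 29 and 64 counts in KO, 8, 11 and 15 in G77S, and 15, 21 and 63 in WT. Dnajc19 itself had 11428 and 18901 counts in KO, 2636, 3174 and 2684 in G77S, and 6153, 6101 and 13789 in WT. The pseudogene is counted as a gene of its own. Dnajc19 itself also overlaps Fxr1 on the opposite strand by 178 exonic bases, and the labels do not say whether the libraries keep strand. Tomm20l and Timm9 overlap on opposite strands by 49 exonic bases.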

How the data were processed

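The authors deposited 1 RSEM gene table per library of E4.5 blastocysts, not pooled. Per the file headers each table holds expected counts, in which RSEM divides ambiguous reads among genes by estimate, TPM and FPKM scaled within the library, a length, and an effective length. FPKM was not used. Per the labels' protocols cDNA was amplified in full length (Vazyme N712) and made into libraries by tagmentation (TruePrep). The submitters' processing notes list RSEM 1.3.1, STAR 2.6.1c, Trim Galore 0.4.5 and DESeq2 1.42.1 with the build mm10 or GRCm38. Which annotation release they used is not given in the sources used here. Deposited TPM values are relative within a library, so a few abundant RNAs can shift the others.

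From these files, expected counts were rounded and tested in R 4.3.3 with the quasi-likelihood test of edgeR 4.0.16. The 8 libraries entered 1 fit with 1 mean for each genotype, after TMM scaling and filterByExpr by group (13953 genes), and p-values were adjusted by Benjamini-Hochberg over all genes tested, with calls at an adjusted p under 0.05. The common coefficient of variation was 0.655 with 5.73 prior degrees of freedom. CPM are TMM-scaled, and ± is the SD. An SE is the log2 fold change divided by the square root of F. Replicates are the libraries the labels number within a genotype, and intervals cover the fit's error only. The embryos and litters behind a library are not given, and the amplified reads carry no molecular identifiers. Symbols came from GENCODE M21, which named 55144 of 55471 gene identifiers (99.4%). Shares of paralogs were compared with exact permutation tests over libraries. Alternatives were RLE scaling, other filters, a fit without the group not compared, a block for the replicate number, DESeq2 1.42.0, limma 3.58.1 on log2(TPM + 1), effective length offsets, a term for Y-linked RNA, and each library left out.

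The import genes and the lists were chosen with earlier results of these data known, so no test over a list was made. Values by library are given for called genes, for the 3 smallest p-values of each comparison, for paralogs and for the most abundant gene of each role by the mean TPM in WT. Other import genes are given as means or ranges, or by library where the unadjusted p was under 0.05. Of each neighbouring list, called genes are named or, with none, the 2 most abundant. Hspa9 and Dnajc15 were added to these as motor partners. The sequence matches and transcript lengths were chosen after values were seen.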

Additional observations from a re-analysis of the deposited data

How the results depend on the processing

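Of the printed log2 fold changes of single import genes and the paralog shares, 328 recomputed values kept their direction and side of the threshold, 48 newly passed it, 6 no longer passed (all Dnajc19 with 1 library left out) and 2 reversed, both in G77S versus KO with limma on log2(TPM + 1): Mtx2 at 0.13 and Timm17a at 0.071. Another 6 values, all paralog shares, changed sign or moved by 1 SD or more. The sign changes were in KO versus WT, where the Grpel2 share difference of -0.039 percentage points reached 1.04. That of Timm8a2, at -0.34, reached 0.90. The Timm8a2 share also moved in both G77S comparisons when taken from counts instead of TPM. Its difference was then 8.01 percentage points in G77S versus WT (12.3 in TPM) and 8.23 in G77S versus KO (12.6 in TPM). For the called neighbouring genes, 20 of the recomputed values no longer passed and 51 kept their call. Counts below are higher then lower, import genes before all genes. With DESeq2, KO versus WT gave 1 import gene higher (305 and 345 of all genes), G77S versus WT 3 and 5 (714 and 824), and G77S versus KO 2 and 3 (853 and 847). Without a filter the counts were 285 and 262 of all genes for KO versus WT, 2 and 4 (598 and 738) for G77S versus WT, and 2 and 2 (619 and 792) for G77S versus KO. The stricter filter, 5 CPM in 2 libraries, gave 34 and 26 of all genes for KO versus WT, 1 and 3 import genes and 325 higher of all genes for G77S versus WT, and 2 import genes lower and 391 higher of all genes for G77S versus KO. Fitting only the 2 groups compared gave 3 genes lower in KO versus WT, 1 and 2 import genes and 326 higher of all genes in G77S versus WT, and 1 and 2 (489 and 520) in G77S versus KO. On log2(TPM + 1) with limma, 57 and 38 of all genes were called in KO versus WT, 8 import genes and 1178 of all genes higher in G77S versus WT, and 7 and 1543 higher in G77S versus KO, and the medians of the import genes were -0.054, 0.45 and 0.58. Effective length offsets gave 2 import genes higher in G77S versus WT, and 1 higher with a median of 0.10 in G77S versus KO. RLE scaling gave 2 import genes lower in both G77S comparisons. The term for Y-linked RNA gave 2 and 2 import genes in G77S versus WT and 163 higher of all genes in G77S versus KO. The cause of these differences was not tested.

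With each library left out in turn, import genes called higher ran from 0 to 2 and lower from 0 to 2 in G77S versus WT, and from 0 to 1 in either direction in G77S versus KO. None was called in KO versus WT. All genes called ran from 31 to 263 higher and 51 to 375 lower in G77S versus WT, from 57 to 102 and 91 to 152 in G77S versus KO, and from 0 to 29 and 0 to 15 in KO versus WT. The median of the import genes ran from 0.13 to 0.21 in G77S versus WT, from -0.059 to 0.15 in G77S versus KO and from 0.07 to 0.16 in KO versus WT. Where 1 KO library is left out, the remaining one is assumed to vary like the other groups.

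No pairing by replicate number was evident: same-numbered libraries had correlations of -0.0207 to 0.0712 in their deviations from the group means. Differently numbered ones had -0.0712 to 0.0556. WT replicate 1 correlated best with KO replicate 1, and WT replicate 2 with G77S replicate 3. Deviations from means of 2 or 3 libraries depend on each other, so this check cannot settle whether libraries are paired. With the replicate block, the calls over all genes numbered 4 higher and 4 lower for KO versus WT, 154 and 257 in G77S versus WT, and 251 and 349 in G77S versus KO, and the import genes had a median of 0.19 in KO versus WT. Import gene calls under the block were 0 and 0, 0 and 1, and 0 and 1.

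Counting depth limits Tomm20l, at 0 counts in WT replicate 1 and 2 counts in WT replicate 3, and Timm29, at 1 count in KO replicate 2.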
